A study of Mus musculus with 4 samples.

Results

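Gm26825 and Gm15459 were 2 of the 22558 genes of the count table, and of the 18324 genes of the normalized table, made from activated group 2 innate lymphoid cells (ILC2s) of the mouse lung. They are transcripts that overlap on opposite strands of chromosome 5, and they were chosen by their counts in the comparison of genotypes described here, so their levels are given as a description with no test. In the ICAM-1 KO labelled libraries, the normalized count of Gm26825 was 55.6-fold that of WT libraries and the normalized count of Gm15459 was 3.54-fold that of WT. Both members lay on a copy of the coding sequence of Hspa8, the gene of the constitutive cytosolic chaperone Hsc70, whose own count was in each library the largest of these 3 genes.

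ILC2s lack antigen receptors and answer the epithelial alarmin IL-33 with type 2 cytokines. The libraries came from 2 pools of WT (C57BL/6) mice and 2 pools of ICAM-1 KO mice, all 6 weeks old according to the labels, and every mouse had received 3 intranasal doses of 0.5 µg rmIL-33. According to the methods of the study, each pool held cells of 4 mice, sorted on day 4 as ILC2s (CD45+ Lin- ST2+ CD127+). The labels give C57BL/6 as the background strain of both groups, whereas the methods name for the knockout a B6.129S4 strain that carries an Icam1 allele, tm1Jcgr, made by gene targeting. Icam1 encodes the adhesion molecule ICAM-1, and its estimated counts were 2579 and 2630 in the WT libraries and 2812 and 3453 in the ICAM-1 KO labelled libraries. Icam1 RNA was not lower in the latter (log2 fold change 0.33, standard error 0.108, adjusted p = 0.0745 by the quasi-likelihood test of edgeR, Benjamini-Hochberg), so they are called here by their label. These counts do not measure the protein. By flow cytometry of lung ILC2s after rmIL-33, the study reports that its ICAM-1 KO mice lack the ICAM-1 protein.

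A processed pseudogene arises when the RNA of a gene is copied back into DNA and inserted elsewhere in the genome, so it has the spliced sequence of its parent gene and no introns of it. A long intergenic noncoding RNA (lincRNA) is a transcript with no recognized open reading frame that the annotation places outside coding genes. Where a transcript runs over a processed pseudogene on the other strand, its sequence is the complement of the parent gene's RNA.

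Gm26825, annotated as a lincRNA, lies on chromosome 5 of mm10 at chr5:5781530-5783636 on the plus strand. Its exons span chr5:5781530-5783469 and chr5:5783551-5783636 and hold 2026 bases, with an intron of 81 bases between them. Gm15459, annotated as a processed pseudogene, lies at chr5:5781615-5783555 on the minus strand and is a single exon of 1941 bases. Of the exonic bases, 1860 were shared on opposite strands, which is 91.8% of Gm26825 and 95.8% of Gm15459. The bases of Gm15459 outside the exons of Gm26825 were the 81 bases of the Gm26825 intron. That intron began with AT and ended with TA on its own strand, and neither of the 2 ways to place it in the sequence gave the GT and AG at which most introns begin and end.

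**Figure D1:**
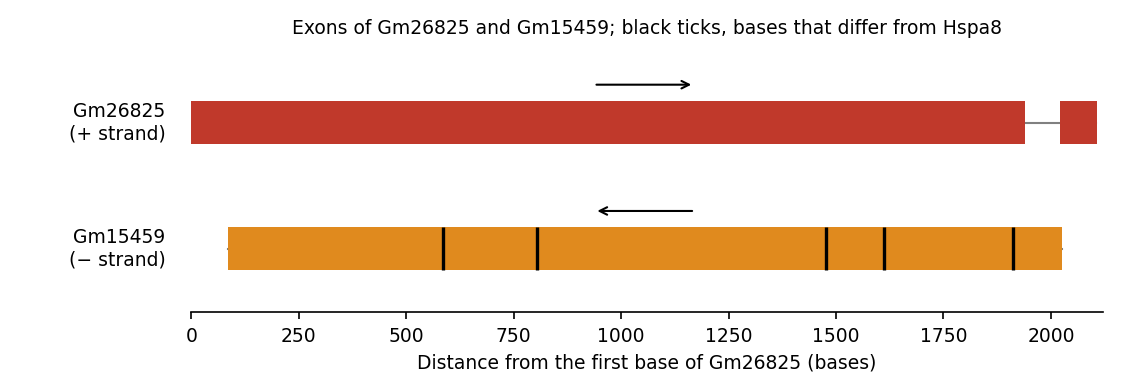
The plot draws the exons of Gm26825 (red, plus strand) and Gm15459 (orange, minus strand) to scale against the distance from the first base of Gm26825 in bases, with arrows for the direction of transcription. Black ticks mark the 5 bases at which Gm15459 differs from the Hspa8 coding sequence, all inside the long first exon of Gm26825.

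Gm15459 was compared base by base with the coding sequence of Hspa8 (chr9:40800984-40810087, plus strand), which is divided over 8 exons. The 1941 bases of both aligned without a gap, with 5 substitutions, an identity of 99.7%. Counted from 1 at the first base of the start codon, with the Hspa8 base first, the substitutions were G114A, C414T, C549T, G1222A and C1440T. The codon kept its meaning at 4 of them and changed it at G1222A, and Gm15459 held 646 codons before the stop codon, as Hspa8 did. The sequences around the substitutions are shown because they are the only places where a read from the coding part of Hspa8 differs from one of Gm15459. The substituted base is in capitals, and the strand of Gm26825 is shown once, at G1222A, as the complementary bases in reverse order. The transcript sequences are those of GENCODE M21 on mm10.
Hspa8 coding bases 94 to 134: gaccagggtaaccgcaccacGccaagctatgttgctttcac
Gm15459 bases 94 to 134: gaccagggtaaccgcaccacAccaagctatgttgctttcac
Hspa8 coding bases 394 to 434: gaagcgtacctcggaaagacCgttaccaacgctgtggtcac
Gm15459 bases 394 to 434: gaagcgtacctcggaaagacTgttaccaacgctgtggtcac
Hspa8 coding bases 529 to 569: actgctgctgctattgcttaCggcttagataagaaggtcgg
Gm15459 bases 529 to 569: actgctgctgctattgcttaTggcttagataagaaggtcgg
Hspa8 coding bases 1202 to 1242: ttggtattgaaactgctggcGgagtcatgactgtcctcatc
Gm15459 bases 1202 to 1242: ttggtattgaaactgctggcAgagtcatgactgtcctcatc
Gm26825 opposite the same bases: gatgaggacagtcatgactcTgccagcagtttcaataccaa
Hspa8 coding bases 1420 to 1460: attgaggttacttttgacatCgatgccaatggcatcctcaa
Gm15459 bases 1420 to 1460: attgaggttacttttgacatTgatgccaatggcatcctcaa

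The stretch of Gm15459 that no exon of Gm26825 covers (chr5:5783470-5783550, minus strand, bases 6 to 86 of Gm15459) is shown because it is the only part of Gm15459 without a transcript annotated opposite to it. It was identical to Hspa8 along its 81 bases.
Gm15459 bases 6 to 86: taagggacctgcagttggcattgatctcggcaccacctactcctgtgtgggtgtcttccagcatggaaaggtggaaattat

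The longest stretch of Gm15459 without a substitution was 672 bases. Of the 1952 stretches of 75 bases in the Gm26825 transcript, 75.2% were found in a Hspa8 transcript, on either strand, and 91.2% in Gm15459. For the 1867 such stretches of Gm15459, the shares were 79.9% in Hspa8 and 95.4% in Gm26825. Stretches found in no other gene numbered 157 for Gm26825 and 47 for Gm15459. With stretches of 50 bases the shares in Hspa8 were 81.8% for Gm26825 and 86.8% for Gm15459, and with 100 bases they were 69.6% and 72.9%. The read length is not given in the sources used here. A read that lies within such a stretch cannot be told apart between these genes by its sequence. The cDNA kit does not mark the strand, so a read from bases that Gm26825 and Gm15459 share cannot be told apart between the members either. The authors' E/M method divides such reads between the genes they fit.

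Gm26825 had 381 and 393 estimated counts in WT libraries 1 and 2, and 22119.6 and 19684.5 in ICAM-1 KO labelled libraries 1 and 2. Both ICAM-1 KO labelled libraries lay far above both WT libraries, and the WT libraries differed by little. Its upper quartile normalized count was 12.6 and 12.5 in WT and 768 and 627 in the ICAM-1 KO labelled libraries, or 12.5 ± 0.0868 (SD, n = 2) against 697 ± 99.4 (SD, n = 2). The fitted log2 fold change was 5.83 with a standard error of 0.135, against a pooled SD of 0.15 between libraries of a group on the log2 scale. In bulk samples such as these, more cells that hold an RNA cannot be told apart from more RNA per cell. Ranked by estimated count among the 22558 genes, Gm26825 was at places 8182 and 8238 in the WT libraries and at places 108 and 154 in the ICAM-1 KO labelled libraries.

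Gm15459 had 3851 and 3883 estimated counts in the WT libraries and 14196 and 12338 in the ICAM-1 KO labelled libraries. The libraries of a group were close to each other, and the groups did not overlap. Its normalized count was 125 ± 2.94 (SD, n = 2) in WT and 443 ± 70.5 (SD, n = 2) in the ICAM-1 KO labelled libraries. The log2 fold change was 1.85 with a standard error of 0.113, against a pooled SD of 0.16 between libraries of a group. By estimated count it ranked at places 1481 and 1576 in WT and at places 216 and 312 in the ICAM-1 KO labelled libraries.

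Both members were among the genes called higher in the ICAM-1 KO labelled libraries (adjusted p below 0.05 with at least a 2-fold change), which were 578 of 11711 tested genes (4.94%). In both members each ICAM-1 KO labelled library lay above each WT library, as in 28.3% of tested genes. Called in either direction were 641 genes (5.47%), and 388 without WT library 1. The statements on the members follow from how the members were chosen and are given only as a description. By log2 fold change Gm26825 was at place 17 and Gm15459 at place 221 of the tested genes. The genes next to Gm26825 in this order, Igkv3-12 above it and Bpifa1 below it, had mean normalized counts of 9.10 and 18.5 in the ICAM-1 KO labelled libraries, where Gm26825 had 697. Of the 269 tested genes with a mean normalized count there at least as high as that of Gm15459, 1 had a log2 fold change as high as that of Gm26825, which was Gm26825 itself. As high a log2 fold change as that of Gm15459 was reached by 5 of them, the members, Chil3 and the immunoglobulin segments Ighv11-2 and Igkv14-126. The members, with WT means of 12.5 and 125, passed this limit only through the group where they are high. Their place among these genes therefore follows in part from the limit.

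**Figure D2:**
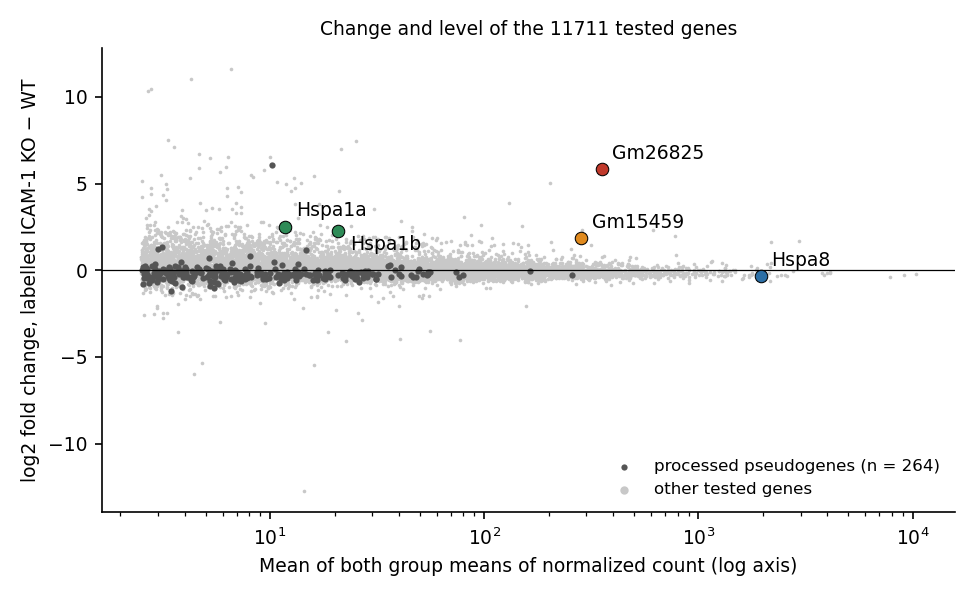
Each point is 1 of the 11711 tested genes, with the mean of both group means of normalized count on the horizontal axis (log scale) and the log2 fold change, ICAM-1 KO labelled minus WT, on the vertical axis; processed pseudogenes are dark grey. Gm26825 stands at 5.83 and Gm15459 at 1.85, and Hspa8 stands at −0.34.

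The division of the counts between the members differed between the groups. Gm26825 held 8.99% and 9.19% of the counts of the pair in the WT libraries (exact 95% binomial intervals 8.16 to 9.91% and 8.34 to 10.1%). It held 60.9% and 61.5% in the ICAM-1 KO labelled libraries (intervals 60.4 to 61.4% and 60.9 to 62.0%). These intervals treat each estimated count as a separate read of known origin. The reads carry no molecular identifiers, so copies made in amplification count as separate reads. The intervals cover neither these copies, nor the division of reads by the E/M estimate, nor the spread between pools. Accordingly, Gm15459 had 90.9% ± 0.138 (SD, n = 2) of the pair's counts in WT and 38.8% ± 0.396 (SD, n = 2) in the ICAM-1 KO labelled libraries, and its share was 52.1 percentage points lower in the latter. Gm26825 had 0.100 counts for each count of Gm15459 in WT and 1.58 in the ICAM-1 KO labelled libraries, so the order of the members by count differed between the groups. This division was made by the E/M estimate, since 1860 exonic bases are shared and 166 of Gm26825 and 81 of Gm15459 are not, and it may not be that of the RNA.

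The same order held per length. Per kilobase of transcript, the normalized count of Gm26825 was 6.22 and 6.16 in WT and 379 and 310 in the ICAM-1 KO labelled libraries. For Gm15459 it was 65.5 and 63.4 in WT and 254 and 203 in the ICAM-1 KO labelled libraries. Hspa8 was the highest of the 3 per kilobase in each library, with 918 and 930 in WT and 797 and 638 in the ICAM-1 KO labelled libraries. In both groups the libraries of neighbouring genes in this order did not overlap.

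**Figure D3:**
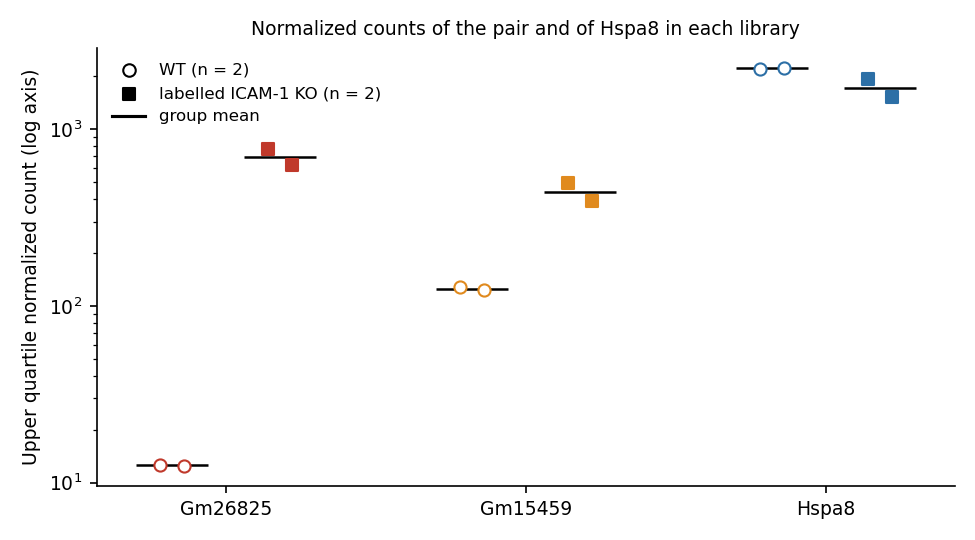
Points show the upper quartile normalized count (log axis) of Gm26825, Gm15459 and Hspa8 in the 2 WT libraries (open circles) and the 2 ICAM-1 KO labelled libraries (filled squares), and lines show group means. Gm26825 goes from 12.5 to 697 and Gm15459 from 125 to 443, while Hspa8 is at 2212 in WT and 1718 in the ICAM-1 KO labelled libraries.

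Hspa8, named here for its sequence and not for its change, had 66565 and 70283 estimated counts in WT and 54956 and 47960.3 in the ICAM-1 KO labelled libraries. Both ICAM-1 KO labelled libraries lay below both WT libraries. With 2 libraries per group such a separation is common in the other direction, where 28.3% of tested genes had it. The share in the direction of Hspa8 is not given here. The log2 fold change of Hspa8 was −0.34 with a standard error of 0.107 and did not pass the test (adjusted p = 0.0672, quasi-likelihood test of edgeR, Benjamini-Hochberg). Among 13 alternative fits the adjusted p ranged from 0.00636 with DESeq2 to 0.344 with edgeR without ICAM-1 KO labelled library 2, and it was under 0.05 in 5 of them. Without ICAM-1 KO labelled library 1 the log2 fold change was −0.50 with an edgeR adjusted p of 0.0117, and without library 2 it was −0.20 with an edgeR adjusted p of 0.344. Hspa8 and the targeted gene Icam1 are both on chromosome 9, 19.8 Mb apart.

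The pair held a larger part of the counts of the 3 genes together in the ICAM-1 KO labelled libraries. Summed, Gm26825, Gm15459 and Hspa8 had 70796 and 74559 counts in WT and 91272 and 79983 in the ICAM-1 KO labelled libraries. The pair made up 5.98% and 5.74% of this sum in WT (exact 95% intervals 5.80 to 6.15% and 5.57 to 5.90%). It made up 39.8% and 40.0% in the ICAM-1 KO labelled libraries (39.5 to 40.1% and 39.7 to 40.4%). These intervals have the same limits as those for the division within the pair. In normalized counts, the mean of the ICAM-1 KO labelled libraries minus that of WT was 685 for Gm26825, 318 for Gm15459 and −494 for Hspa8. The mean of Hspa8 was 1.29-fold higher in WT. The normalized sum of the 3 genes was 2349 ± 16.8 (SD, n = 2) in WT and 2858 ± 438 (SD, n = 2) in the ICAM-1 KO labelled libraries. Fitted as 1 row in place of the 3, the sum had a log2 fold change of 0.31 with a standard error of 0.107. Hspa8 held 94.0% and 94.3% of the sum in WT, so a change of the pair moves the sum by much less than the pair itself. How many reads of Hspa8 are counted to the pair, or the reverse, was not tested.

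**Figure D4:**
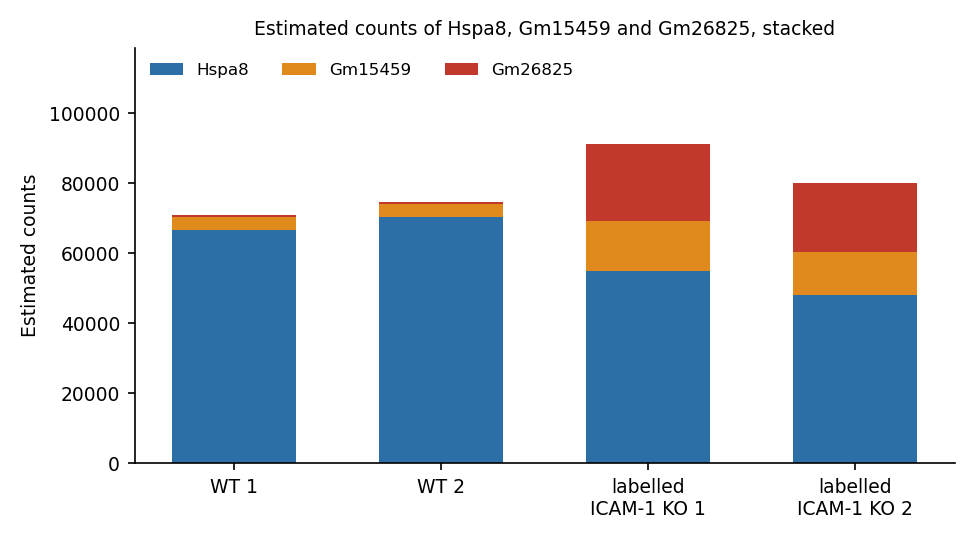
Bars show the estimated counts of Hspa8 (blue), Gm15459 (orange) and Gm26825 (red) stacked for each of the 4 libraries. The pair is a thin cap of 4231 and 4276 counts in the WT libraries and a block of 36315 and 32023 counts in the ICAM-1 KO labelled libraries.

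The 3 genes also moved together between the 2 ICAM-1 KO labelled libraries. Library 1 was higher than library 2 in normalized count, 1.22-fold for Gm26825, 1.25-fold for Gm15459 and 1.25-fold for Hspa8. A ratio at least as high as that of Gm26825 was found in 14.3% of tested genes. Between WT libraries 1 and 2 the ratios were 1.01, 1.03 and 0.987.

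Besides Hspa8, the annotation held 11 other genes whose transcripts match a member with at least 90% identity over at least 100 bases, all of them processed pseudogenes, and 7 of these were in the count table. None of the 7 had more than 32.4 counts in a library. The nearest in sequence were Gm8355 and Gm6210, which matched Gm15459 with 98.7% and 98.6% identity along its 1941 bases. Gm8355 had 13.4 and 19.2 counts in WT and 15.6 and 16.8 in the ICAM-1 KO labelled libraries. Gm6210 had 24.9 and 21.6 counts in WT and 32.4 and 13.3 in the ICAM-1 KO labelled libraries. For both of these copies the groups overlapped, and neither had enough counts to be tested. The sum over the 7 copies was 63.8 and 58.5 counts in WT and 78.9 and 55.4 in the ICAM-1 KO labelled libraries.

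Processed pseudogenes as a class were rarely called. Of 264 tested, 3 were called (1.14%, against 5.47% of all tested genes in either direction), all of them higher in the ICAM-1 KO labelled libraries, namely Gm15459, Gm11942 and Gm6637. Gm11942 had 6.25 and 13.3 counts in WT and 557 and 658 in the ICAM-1 KO labelled libraries. Gm6637 had 262 and 303 counts in WT and 479 and 742 in the ICAM-1 KO labelled libraries. Gm15459 had the highest mean normalized count of the 264 in the ICAM-1 KO labelled libraries and was at place 3 in WT. The median log2 fold change of the 264 was −0.24, beside 0.01 over all tested genes.

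For 211 processed pseudogenes, a tested coding gene matched with at least 98% identity over at least 90% of the pseudogene. The log2 fold change of Gm15459 was 2.19 above that of Hspa8. Over the other 210, the difference between the pseudogene and its coding gene had a median of −0.01 and ran from −1.08 to 1.46. In the shares of counts, Gm15459 had 15.1 percentage points more of the counts it shares with Hspa8 in the ICAM-1 KO labelled libraries than in WT, where the change over the other 210 ran from −8.29 to 10.7 points. Gm15459 was the only one of the 211 pseudogenes that was called, where 5.47% of all tested genes were called in either direction. It was chosen with its change known, so its place beside the other 210 is only a description.

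**Figure D5:**
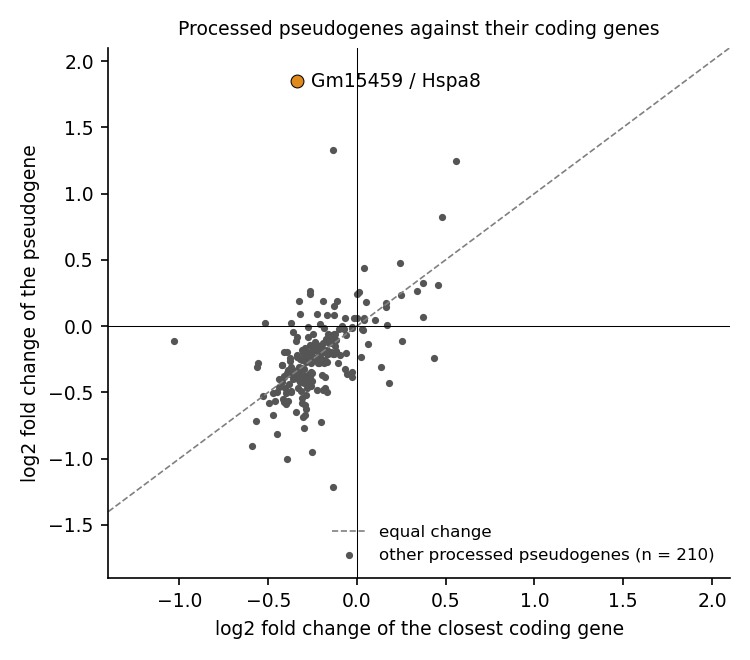
Each point is 1 of 211 processed pseudogenes, with the log2 fold change (ICAM-1 KO labelled minus WT) of its closest coding gene on the horizontal axis and its own on the vertical axis; the dashed line is equal change. Gm15459, which was chosen with its change known, lies at −0.34 and 1.85, farther above the line than the other 210.

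Among lincRNAs, 10 of 116 tested genes were called (8.62%, against 5.47% of all tested genes), 8 higher and 2 lower. Gm26825, which was chosen with its change known, had the highest log2 fold change of the 116. The next were Gm26732 with 2.03 and A630023P12Rik with 1.89, and both had at most 186 counts in a library. By mean normalized count Gm26825 went from place 27 of the 116 in WT to place 3 in the ICAM-1 KO labelled libraries, behind Gm26917 and Malat1, an abundant nuclear RNA.

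The region around the pair had few counts. No other gene of the count table overlapped the members. Within 500 kb on either side the table held 7 genes, and 1 of them had enough counts to be tested and was not called. This gene, Gtpbp10, a GTP-binding protein gene 222 kb before the pair, had 181 and 343 counts in WT and 243 and 262 in the ICAM-1 KO labelled libraries. The nearest gene, Steap1, 32.2 kb before the pair, had 0 counts in each library. Steap2, a metalloreductase gene 87.0 kb before the pair, had 0 counts in both WT libraries and 13 and 54 in the ICAM-1 KO labelled libraries. It was too low for the test reported here, and it was called higher when edgeR's filterByExpr set the filter on low counts.

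Cfap69, 117 kb before the pair, had at most 13 counts in a library, and Gm8773, 205 kb before it, at most 47. Cldn12, a claudin gene 267 kb before the pair, had 50 and 4 counts in WT and 66 and 111 in the ICAM-1 KO labelled libraries. On the other side the nearest genes with counts lay over 1 Mb away, the pseudogene Tubb4b-ps1 at 1396 kb, Steap4 at 2177 kb and Sri, the gene of the calcium-binding protein sorcin, at 2262 kb. Sri had 10990 and 11271 counts in WT and 9026 and 10471 in the ICAM-1 KO labelled libraries, with a log2 fold change of −0.13. Adam22 at 2289 kb had at most 40 counts in a library, and Dbf4, which activates a kinase of DNA replication, had 1616 and 1646 counts in WT and 1425 and 1427 in the ICAM-1 KO labelled libraries. Neither Sri nor Dbf4 was called. On the whole of chromosome 5, 29 of 728 other tested genes were called (3.98%), 28 of them higher. Over all tested genes 641 were called (5.47%), 578 of them higher.

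The pair was then set beside the other genes that overlap on opposite strands. Of 1161 such pairs of tested genes, both genes were called in 6 (0.517%), each time in the same direction. This count was 3 without WT library 2. Ordered by the smaller of the 2 absolute log2 fold changes, Gm26825 and Gm15459 were second. First were Gm26781 and Gpr25 on chromosome 1, both lower, with log2 fold changes of −3.04 and −2.77. The third and the fifth pair, A530032D15Rik and C130026I21Rik, each with A530040E14Rik, lay on chromosome 1, and the fourth was Mid1 with G530011O06Rik on the X chromosome, all higher. The genes of these 4 pairs had at most 1238 counts in a library, where each member of the chromosome 5 pair had 12338 or more in each ICAM-1 KO labelled library. In 53.7% of the 1161 pairs the log2 fold changes had the same sign.

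By the Euclidean distance between log2 normalized counts, centred over the 4 libraries, the patterns nearest to Gm26825 were those of Igkv19-93, Gm11942, Ighv9-4, Cxcl15 and Igkv14-111, at distances of 0.553 to 1.64. Of these, 3 are immunoglobulin variable segments and Cxcl15 is a chemokine gene of lung epithelium. Each had under 40 counts in the WT libraries and 127 to 994 in the ICAM-1 KO labelled libraries. Gm15459 was the 184th gene in this order, at a distance of 3.98. The patterns nearest to Gm15459 were those of A630023P12Rik, Sh3tc1, Ttn, Hepacam2 and Thbs1, at 0.100 to 0.229. Thbs1, the gene of the matrix glycoprotein thrombospondin 1, had 1273 and 1191 counts in WT and 3986 and 3325 in the ICAM-1 KO labelled libraries. These distances describe 4 libraries in 2 groups, so any gene with a like change between the groups comes near.

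Genes of the Hsp70 family were looked at by symbol after their values had been seen. Of 14 in the count table, Hspa8 and the pseudogene Hspa9-ps1 included, 11 were tested and 3 were called, all higher, where 5.47% of all tested genes were called in either direction. The stress-inducible Hspa1a had 117 and 104 counts in WT and 602 and 596 in the ICAM-1 KO labelled libraries (log2 fold change 2.50, standard error 0.264, adjusted p = 0.0011 by edgeR's quasi-likelihood test). Hspa1b, a near-identical copy of Hspa1a with which it can share reads, had 254 and 201 counts in WT and 983 and 1068 in the ICAM-1 KO labelled libraries. Hspa12b had 23 and 44 counts in WT and 138 and 151 in the ICAM-1 KO labelled libraries. Hspa5, which encodes the chaperone BiP of the endoplasmic reticulum, had 35176 and 33404 counts in WT and 41546 and 46159 in the ICAM-1 KO labelled libraries. Its log2 fold change of 0.42 (adjusted p = 0.0153, same test) was under the limit of 2-fold. Hspa4, Hspa9 and Hspa14 had log2 fold changes of −0.23, −0.25 and −0.12, and Hspa2, Hspa4l and Hspa13 had 0.63, 0.59 and 0.10. None of these was called.

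The ICAM-1 KO labelled libraries also differed from WT in markers of cells other than ILC2s. Of 11 ILC2 genes none was called higher and 1, Il13, was called lower, and their summed counts were 171386 and 195454 in WT and 154580 and 174253 in the ICAM-1 KO labelled libraries. Called higher were 4 of 6 T cell, 3 of 4 B cell, 4 of 6 alveolar and airway epithelial, 5 of 5 endothelial, 4 of 5 macrophage, 3 of 3 neutrophil and 0 of 3 mesenchymal markers that were tested, whereas 2 of 2 eosinophil markers were called lower. Over all 11711 tested genes, 4.94% were called higher and 5.47% in either direction. Summed counts of the B cell markers were 29816 to 64522 in WT and 112509 to 171210 in the ICAM-1 KO labelled libraries, and those of the endothelial markers were 2943 to 3234 and 7506 to 8621. T cell markers summed to 8882 to 11538 counts in WT and 16943 to 22920 in the ICAM-1 KO labelled libraries, macrophage markers to 1216 to 1286 and 2274 to 3494, neutrophil markers to 1296 to 1389 and 2957 to 3686, mesenchymal markers to 179 to 705 and 438 to 909, and eosinophil markers to 1780 to 2610 and 33 to 118. The epithelial markers summed to 15023 in library 1 and 41956 in ICAM-1 KO labelled library 2, and to 12423 and 5656 in WT. Between these ICAM-1 KO labelled libraries, the neutrophil markers had the higher sum in library 1 (3686 against 2957). The neutrophil genes were split, with S100a8 and S100a9 higher in library 1 and Ngp higher in library 2. Each of the other lists had the higher sum in library 2. No listed marker was at 0 in all 4 libraries. The part of these cells in the counts of the pair was not tested.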

How the data were processed

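RNA of sorted lung ILC2s was sequenced in 4 libraries, 2 per genotype, each from a pool of mice; the labels gave each library's genotype and replicate number. Pools are the replicates. The authors made cDNA from 10 ng of RNA with a SMARTer low-input kit, which does not mark strand, aligned the reads with STAR to mm10 and used the E/M method of Partek with GENCODE M20 to estimate counts of genes. The deposited expected counts are not normalized, and 52.3% are exactly whole. The deposited normalized signal is upper quartile normalized, with 1 added to each count before it is scaled by the library's factor. Libraries held 24796148 to 28782471 counts.

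Counts were rounded and tested with edgeR 4.0.16 (glmQLFit with legacy set to FALSE, glmQLFTest, upper quartile factors, no covariate) in R 4.3.3. Tested were 11711 genes whose normalized count averaged at least 1 and summed to at least 10, with Benjamini-Hochberg adjustment over all of them. The study names GSA of Partek, which was not run here. Standard errors come from the log2 fold change and its F statistic. Fits were tested on simulated data.

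Transcripts and exons are those of GENCODE M21; copies were found with blastn. The genes named are the members, genes matching them in sequence, the 5 nearest genes on each side with at least 10 counts in a library, the 5 nearest patterns, the 5 opposite-strand pairs with the largest smaller change, Icam1 and marker genes; further genes, among them called pseudogenes, lincRNAs, abundant genes and Hsp70 genes, were chosen after their values were seen. The members, lists and tests were chosen with earlier results of these data known. Alternatives were TMM factors, DESeq2 1.42.0, other filters on low counts, the older quasi-likelihood method, limma 3.58.1 on log2 normalized counts, a replicate block and leaving out each library. P-values set the difference between groups against the spread between these pools, which is estimated with the help of all tested genes. They do not cover the spread between mice within a pool.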

Additional observations from a re-analysis of the deposited data

How the results depend on the processing

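Over 13 alternatives the log2 fold change ran from 5.68 to 5.96 for Gm26825 and from 1.69 to 1.99 for Gm15459, each within 1 pooled SD of the reported value, and the difference in the share of Gm15459 in the pair ran from −52.4 to −51.8 percentage points when a library was left out. All genes called numbered 641, 312 with no filter on low counts, which tests more genes, and 388 without WT library 1 to 676 when a library was left out. Opposite-strand pairs with both genes called in the same direction numbered 6, 2 with no filter and 3 without WT library 2 to 6 when a library was left out. Of neighbouring genes, 1 was tested within 500 kb and 2 within 1 Mb, and 0 were called, also when a library was left out, while none was tested within 100 kb; with filterByExpr 1 was called, Steap2, which the reported filter leaves out. Hspa8, added after the data were seen, passed the adjusted p of 0.05 in 5 of 13 alternatives. Replicate numbers are shared between genotypes but the animals are not, and with a replicate block the log2 fold changes were 5.82 for Gm26825 and 1.84 for Gm15459, and the edgeR adjusted p of Hspa8 was 0.0187 (correlation of the deviations of libraries with the same number −0.07). The cause of these shifts was not tested. With 2 libraries per group and reads that fit several genes, these values separate neither the members from Hspa8 nor the members from each other.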
